A study of Mus musculus with 7 samples.

Results

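The cells described here are 1 of the 2 endocrine clusters that the submitters annotated in single-cell RNA-sequencing of wild-type (WT) mouse pancreas. Its name holds a single Greek letter, which is stored as a question mark in the deposited cell annotation, and its members were taken by that name. It holds 133 of the 10653 WT cells, in a series of 58473 cells from 7 mice. WT 1 gave 44 cells and WT 2 gave 89 cells. The cluster was checked against marker genes of the islet cell types and is called beta cell-like here, because beta cell genes were high in both mice while the genes of alpha, delta and gamma cells were low or rested on a few cells.

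Beta cells are the insulin-secreting cells of the islets of Langerhans. They take up glucose through a low-affinity transporter, and the resulting rise in ATP closes potassium channels, opens calcium channels and releases secretory granules. The granules carry hormones that were cut from precursors by prohormone convertases, together with islet amyloid polypeptide (Iapp) and the acidic granins Chga and Chgb. Ins1, Ins2 and Gcg, the insulin and glucagon genes, were not analysed here, so the cell type rests on other genes.

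The 7 mice were C57BL/6 animals of 2 months. WT 1 and WT 2 and the mice i4F 1, i4F 2 and i4F 3 drank doxycycline at 1 mg/ml for 7 days. The i4F mice are heterozygous for a doxycycline-inducible cassette of the reprogramming factors Oct4 (Pou5f1), Sox2, Klf4 and Myc in the Pparg gene, and for the transactivator rtTA at Rosa26, which is active in most cell types. CER 1 and CER 2 had the WT genotype and received caerulein, a cholecystokinin analogue that causes acute pancreatitis, at 100 µg/kg in 7 injections a day for 2 days; the labels give them no doxycycline, so WT and CER differ in both agents. Whole pancreas was dissociated with no sorting, so shares of cells also depend on what survived dissociation. Each mouse is 1 library and 1 replicate.

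Total depth ranged from 15469018 to 64784216 UMIs (unique molecular identifiers, each standing for 1 captured RNA molecule) per mouse. rtTA checked the genotype labels, with 2571, 1824 and 722 UMIs in i4F 1, i4F 2 and i4F 3 against 16 and 3 in WT and 7 and 1 in CER. Pou5f1 had 154, 315 and 3 UMIs in the i4F mice against 16 and 3 in WT and 31 and 32 in CER. The library labelled i4F 3 therefore held the transactivator, but its Pou5f1 count was no higher than in WT, and its Sox2 count was 0 against 15 and 40 in i4F 1 and i4F 2. The shares and gene calls that use it are also given without it. WT 1 and WT 2 shared 9 cell barcodes, none of them in the cluster.

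Promoters of 3 genes of the cluster are shown because their products stand for 3 features of these cells. Iapp is the amyloid hormone with the most UMIs among the genes analysed. Ucn3 is a peptide hormone that separated the cluster from the other endocrine cells, and Scg2 is a granin common to both. Each promoter is the 250 bases before the RefSeq gene start in GRCm38.p6, written 5′ to 3′ on the strand of the gene. Capitals mark TAAT on either strand, the core bound by homeodomain factors such as Pdx1 and Nkx6-1, and TGACGTCA, the cAMP response element.

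Iapp: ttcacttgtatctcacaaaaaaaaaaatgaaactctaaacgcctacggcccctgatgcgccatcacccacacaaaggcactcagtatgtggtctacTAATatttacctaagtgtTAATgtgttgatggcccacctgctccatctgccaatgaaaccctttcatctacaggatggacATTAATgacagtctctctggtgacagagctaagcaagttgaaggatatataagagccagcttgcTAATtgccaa

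Ucn3: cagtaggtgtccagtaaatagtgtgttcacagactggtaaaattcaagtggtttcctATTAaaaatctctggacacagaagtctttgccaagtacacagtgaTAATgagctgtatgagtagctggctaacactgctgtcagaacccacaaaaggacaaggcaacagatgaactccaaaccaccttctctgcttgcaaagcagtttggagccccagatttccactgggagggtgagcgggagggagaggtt

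Scg2: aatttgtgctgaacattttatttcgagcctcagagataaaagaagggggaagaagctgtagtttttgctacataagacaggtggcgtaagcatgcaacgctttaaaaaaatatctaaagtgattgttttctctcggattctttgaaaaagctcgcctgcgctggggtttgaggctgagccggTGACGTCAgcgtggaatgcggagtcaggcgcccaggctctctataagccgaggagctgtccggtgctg

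The Iapp window lies at chr6:142298175-142298424 on the plus strand and holds 5 matches to TAAT. The Ucn3 window, at chr13:3945350-3945599 on the minus strand, holds 2. The Scg2 window, at chr1:79440027-79440276 on the minus strand, has no TAAT and 1 TGACGTCA whose first base lies 68 bases before the start. TAAT is common: 54.9% of all 32851 promoters of this length hold it, overlapping matches included, whereas 1.55% hold TGACGTCA; by gene, the shares are 58.5% and 1.77% of 27025. Among the 20 genes that led the cluster over the non-endocrine cells, 16 were in the promoter table and 4 of these (Chgb, Pcsk1, Peg3 and Scg2) held TGACGTCA in a window of the table, that of Pcsk1 lying within the annotated gene. TAAT was held by 11 of these 16 genes. Of the 15 genes that led the cluster over the other endocrine cluster, 10 were in the table, 9 with TAAT and 0 with TGACGTCA. Of the 15 leading genes on the lower side, 10 were in the table as well, 7 with TAAT and 1 with TGACGTCA. These matches describe letters in a window and show no binding.

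The cluster made up 1.02% of the cells of WT 1 (exact 95% binomial interval 0.740 to 1.36) and 1.41% of those of WT 2 (1.13 to 1.73), or 1.21% ± 0.276 (SD, n = 2). It held 44.0% and 49.7% of the endocrine cells of the 2 mice. Its cells were deep, with a median of 9853 and 8001 UMIs per cell, against 5785.5 and 4466.5 in the other endocrine cluster and 2499 and 2676 in non-endocrine cells. The shallowest cell of the cluster had 2575 UMIs. Because the submitters formed the clusters from these same counts, levels in the cluster are set beside the rest as a description and carry no test. Levels are in CPM, the UMIs of a gene scaled to a common total, over the summed cells of a class in a mouse, and log2 ratios were taken within a mouse after adding 20 CPM to both sides, which understates the ratios of low genes. A gene is called higher or lower here where the ratio was at least 4-fold in the same direction in both mice.

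Among the genes analysed, which leave out Ins1 and Ins2, Iapp had by far the highest level in these cells. CPM and shares of UMIs are over the genes analysed. It stood at 180091 CPM in WT 1 and 163665 CPM in WT 2, against 19874 and 16937 CPM in the other endocrine cluster and 97.8 and 186 CPM in non-endocrine cells. Cell by cell, Iapp took a median of 17.7% of the UMIs in WT 1 (range 8.39 to 26.0) and 16.2% in WT 2 (6.37 to 24.9), so no cell of the cluster was without it. Chga followed at 16371 and 24347 CPM, and Chgb, the third marker, at 2125 and 2057 CPM. Chga and Chgb were far above the 9.16 and 21.7 CPM and the 1.82 and 5.36 CPM of non-endocrine cells, but neither separated the cluster from the other endocrine cells, which had 8328 and 9469 CPM of Chga and 3129 and 3974 CPM of Chgb. The 10 most abundant transcripts among the genes analysed were Iapp, Chga, Malat1, mt-Cytb, Scg2, mt-Nd4, Ftl1, Resp18, Tpt1 and Ttr.

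All 8 listed genes of the beta cell list were higher than in non-endocrine cells (median log2 ratio 4.83), where 1.35% of the 14409 genes compared were called higher, with a median of -0.07 over all genes. 6 of the 8 were also higher than in the other endocrine cluster (median 3.50), where 0.905% of 3978 genes were called higher and the median over all genes was 0.09. Ucn3, the peptide hormone urocortin 3 of mature beta cells, had 729 and 670.3 CPM against 0 and 8.39 CPM in the other endocrine cluster. Mafa, a transcription factor of mature beta cells, had 321 and 383 CPM against 5.57 and 8.39 CPM. Slc2a2, which encodes the glucose transporter GLUT2, had 646 and 722 CPM against 2.78 and 14.7 CPM. G6pc2, the islet glucose-6-phosphatase subunit, had 1019.9 and 837 CPM against 5.57 and 18.9 CPM. In each of these 4 genes both mice of the cluster lay above both mice of either comparison class. The share of all compared genes that do so was not counted, so this does not set them apart. The other 2 genes of the list did not pass the 4-fold rule over the other endocrine cells. Pdx1, with 329 and 389 CPM against 77.9 and 54.5 CPM, fell short in WT 1 alone and only once 20 CPM were added. The zinc transporter gene Slc30a8, with 1151 and 999 CPM against 598 and 568 CPM, fell short in both mice.

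**Figure D1:**
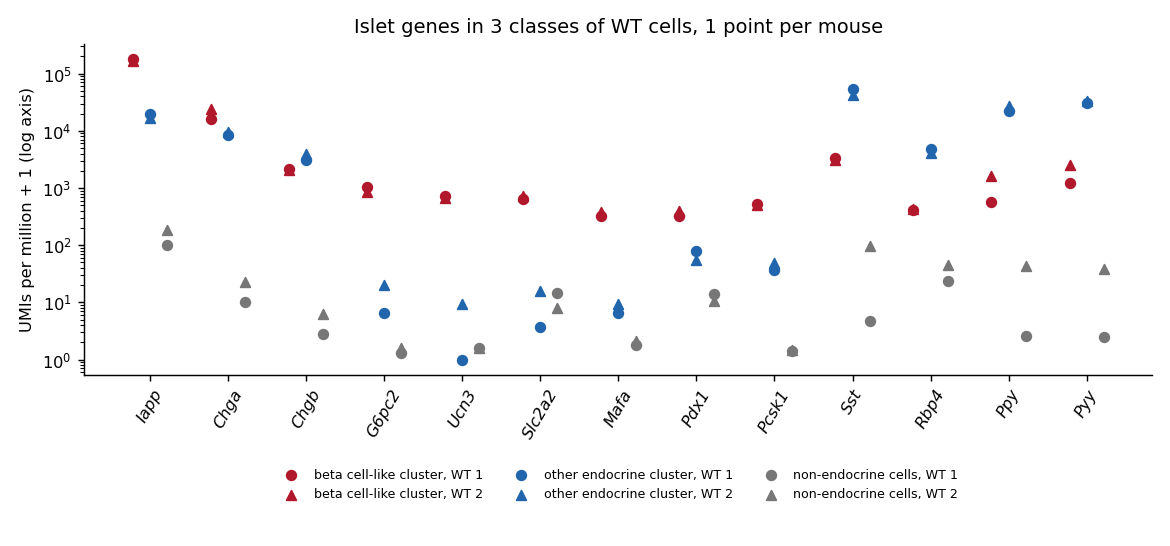
Levels of 13 islet genes in CPM plus 1 (log axis) in the beta cell-like cluster, the other endocrine cluster and the non-endocrine cells, with 1 point per WT mouse and no error bars. Ucn3, G6pc2, Slc2a2, Mafa and Pcsk1 were high in the cluster alone, and Sst, Rbp4, Ppy and Pyy were highest in the other endocrine cluster.

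Shares of cells with a UMI told the same. Mafa was seen in 84.2% of the cells of the cluster, 2.05% of the other endocrine cells and 0.655% of ductal cells, which should lack it. For Ucn3 the shares were 97.0%, 0.685% and 0.218%, and for G6pc2 98.5%, 1.37% and 0.146%. Median depth was 8731 UMIs in the cluster, 4970 in the other endocrine cluster and 5126 in ductal cells. With every cell thinned to 2500 UMIs (133 of 133, 128 of 146 and 1127 of 1374 cells were deep enough), the shares were 48.9%, 0.781% and 0.177% for Mafa, 77.4%, 0% and 0.0887% for Ucn3, and 78.9%, 0.781% and 0.0887% for G6pc2. Iapp was present in 27.7% of ductal cells (13.8% after thinning), so a UMI of this abundant gene alone did not mark an endocrine cell.

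Genes of the other islet hormones and their regulators were lower than in the other endocrine cluster. Irx1, a transcription factor of alpha cells, had 0 UMIs in the cluster in both mice, against 33.4 and 33.6 CPM in the other endocrine cluster. Irx2, its relative, had 2 UMIs and 1 UMI in the cluster and 47.3 and 33.6 CPM in the other endocrine cells. The amino acid transporter gene Slc7a2 of the alpha cell list was higher than in non-endocrine cells, with 110.2 and 91.0 CPM, and lay below the 298 and 187 CPM of the other endocrine cells. Somatostatin (Sst) of delta cells was at 3386 and 3076 CPM against 54066 and 42690 CPM, and Rbp4 at 416 and 435 CPM against 4793 and 4037 CPM. Pancreatic polypeptide (Ppy) of gamma cells was at 562 and 1606 CPM against 21939 and 27398 CPM, and Pyy at 1227 and 2573 CPM against 30189 and 32936 CPM. Sst, Rbp4, Ppy and Pyy were therefore lower than in the other endocrine cluster and still higher than in non-endocrine cells in both mice. Ghrl, the hormone gene of epsilon cells, had 0 UMIs.

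The hormone transcripts of other islet types came from few cells of the cluster. Sst had a UMI in 15 of the 133 cells, and the 8 cells with 10 or more carried 99.8% of its UMIs, between 91 and 955 each. Ppy reached 10 UMIs in 8 cells (41 to 387) and Pyy in 12 cells (17 to 726). Altogether 12 cells, 9.02% of the cluster, had 10 UMIs of at least 1 of the 3 hormones, and 7 of them had all 3. Those 12 cells held a median of 1426 Iapp UMIs against 1360 in the rest, and a median of 10928 UMIs in all against 8331. The 2 mice differed in this. In WT 1 the 3 such cells had medians of 3081 Iapp UMIs against 1714, and 19830 UMIs in all against 9832. In WT 2 the 9 such cells had 1066 Iapp UMIs against 1262, and 10608 UMIs in all against 7950.5. The limit of 10 UMIs was chosen after the values were seen. Scrublet, a doublet caller, marked none of the 133 cells, but it marked only 2 of the 4327 cells of WT 1 and did not work there. Whether these are cells with several hormones or droplets with more than 1 cell was not tested.

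**Figure D2:**
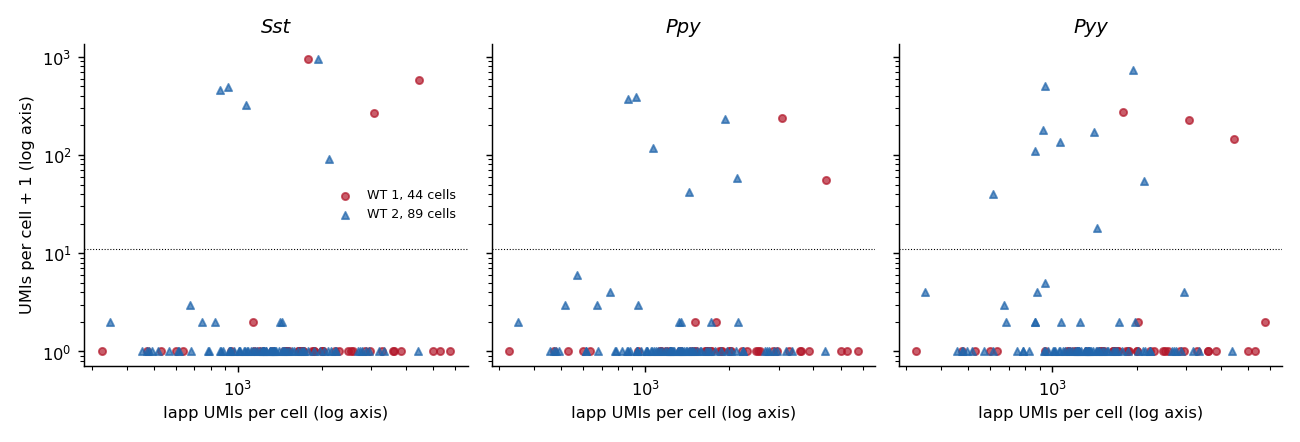
UMIs of Sst, Ppy and Pyy plus 1 against Iapp UMIs in each cell of the beta cell-like cluster (both axes log), 44 cells of WT 1 and 89 cells of WT 2, with the dotted line at 10 UMIs. Most cells lie at 0 for all 3 hormones while a separate few lie above the line, within the range of Iapp levels of the rest.

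Secretory granule genes were shared with the other endocrine cells. Of 11 genes for granins and granule cargo, 10 had enough counts and all 10 were higher than in non-endocrine cells (median log2 ratio 6.38). 1 of the 10, Sytl4 (granuphilin, which docks insulin granules), was also higher than in the other endocrine cluster, with 234 and 211 CPM against 0 and 2.10 CPM. Secretogranin II (Scg2) had 7481 and 8135 CPM against 3126 and 3104 CPM in the other endocrine cells, and Scg3 2057 and 2285 against 919 and 1057 CPM, both short of 4-fold. Resp18, a luminal granule protein, was instead more abundant in the other endocrine cells, at 8991 and 8466 CPM against 3956 and 3838 CPM in the cluster. The 9 endocrine genes used later as a gate were all higher than in non-endocrine cells, and 0 of them differed by 4-fold from the other endocrine cluster.

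The 6 genes for prohormone processing were all higher than in non-endocrine cells (median log2 ratio 5.09). Pcsk1, the convertase PC1/3 that makes the first cuts in proinsulin, was the 1 that also marked the cluster off from the other endocrine cells, with 528 and 493 CPM against 36.2 and 48.2 CPM, a log2 ratio of 3.29 and 2.91. Its partner PC2, encoded by Pcsk2, was shared, with 2496 and 1948 CPM against 3139.8 and 2601 CPM. Carboxypeptidase E (Cpe), which trims the cut ends, stood at 1341 and 1405 CPM.

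Of 19 islet transcription factors, 18 were listed and 13 had enough counts, and 8 of these were higher than in non-endocrine cells (median log2 ratio 2.57): Mafa, Nkx6-1, Pdx1, Neurod1, Pax6, Isl1, Insm1 and St18. Nkx6-1 and Mafa were higher than in the other endocrine cluster too, Nkx6-1 with 315 and 334 CPM against 27.8 and 27.3 CPM. Neurod1, Pax6 and Isl1 were less than 4-fold apart between the endocrine clusters. Neurod1 had 433 and 334 CPM against 345 and 299.9 CPM, and Pax6 198 and 145 CPM against 231 and 145 CPM. Isl1 was at 291 and 193 CPM in the cluster and at 582 and 348 CPM in the other endocrine cells.

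Genes for glucose sensing and for ion channels were next. Of 14 with enough counts, 7 were higher than in non-endocrine cells (median log2 ratio 1.93), namely G6pc2, Slc2a2, Slc30a8, Abcc8, Trpm5, Ffar1 and Gipr, and 3 were higher than in the other endocrine cluster (G6pc2, Slc2a2 and Trpm5). Trpm5, a calcium-activated cation channel, had 344 and 185 CPM in the cluster against 0 and 6.29 CPM. Abcc8, the sulphonylurea receptor of the potassium channel, was shared, at 395 and 290.3 CPM against 381 and 243 CPM. Glp1r, the receptor for the incretin GLP-1, reached 15.2 and 17.2 CPM with 0 UMIs in the other endocrine cluster. Of 10 compared genes of the exocytosis machinery, 5 were higher than in non-endocrine cells: Snap25, Rab3a, Cadps, Syt7 and Sytl4.

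Genes for protein folding in the endoplasmic reticulum (ER) had a summed level of 14624 and 14782 CPM in the cluster, 7724 and 6361 CPM in the other endocrine cluster and 8748 and 7090 CPM in non-endocrine cells. Only Ero1lb of the 18 genes passed 4-fold. This ER oxidase, which helps proinsulin form its disulphide bonds, had 965 and 1379 CPM against 44.5 and 88.1 CPM in the other endocrine cells and 28.7 and 36.5 CPM in non-endocrine cells. Manf, a secreted ER stress factor, had 1931 and 1591 CPM against 704 and 499 CPM in the other endocrine cells. The chaperone gene Hspa5 had 2338 and 2289 CPM against 1600 and 1237 CPM, and was at 2594 and 2226 CPM in non-endocrine cells. Median log2 ratios over the list were 1.00 to non-endocrine cells and 0.83 to the other endocrine cluster.

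Some genes are known as disallowed in beta cells, because their products would disturb glucose-stimulated secretion. Of 11 such genes, 0 were higher and 4 lower than in non-endocrine cells (Ldha, Oat, Cxcl12 and Igf1), where 2.80% of all genes were called lower. Lactate dehydrogenase A (Ldha) was at 17.1 and 29.0 CPM against 337 and 348 CPM in non-endocrine cells. The ornithine aminotransferase gene Oat was at 26.6 and 15.8 CPM against 343 and 273 CPM. Slc16a1, a lactate and pyruvate transporter, and Smad3 had 0 UMIs in all 133 cells. Ldha was also low in the other endocrine cells (44.5 and 23.1 CPM), so its level did not set the cluster apart from them.

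Immediate early and stress genes, which rise during dissociation of tissue, had a summed level of 6951 and 5336 CPM in the cluster, 12002 and 14208 CPM in the other endocrine cluster and 26137 and 31435 CPM in non-endocrine cells. 6 of the 14 were lower than in non-endocrine cells (Atf3, Jun, Zfp36, Hspa1a, Ier3 and Egr1), and Hspa1a was lower than in the other endocrine cells as well. Atf3 stood at 382 and 96.3 CPM against 3269.6 and 2300.3 CPM in non-endocrine cells. The study addressed natural killer (NK) cells in reprogramming, and 7 of 12 genes for ligands of NK cell receptors were listed. Icam1 (0 and 21.1 CPM against 194 and 191 CPM), Nectin2 (30.4 and 11.9 against 272 and 178 CPM) and Pvr (17.1 and 1.32 against 130 and 72.5 CPM) were lower than in non-endocrine cells. Ulbp1, Raet1d, Raet1e and H60b had 0 UMIs in the cluster. The 7 genes summed to 47.5 and 34.3 CPM in the cluster, 66.8 and 130 CPM in the other endocrine cluster and 606 and 448 CPM in non-endocrine cells. Between the endocrine clusters 0 of them had enough counts to compare, so low levels were not shown to be particular to this cluster.

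Against the other endocrine cluster, 36 genes were higher and 26 lower (0.654% of the genes compared). Beside the beta cell list, the leading genes that were higher included the prolactin receptor Prlr, which mediates beta cell growth in pregnancy, with 893 and 848 CPM against 27.8 and 27.3 CPM. Bace2, a protease of beta cells, had 520.4 and 533 CPM against 13.9 and 14.7 CPM, and Ppp1r1a, an inhibitor of protein phosphatase 1, 722 and 1062 CPM against 36.2 and 90.2 CPM. The smaller of the log2 ratios in both mice was 3.99 for Bace2 and 3.30 for Ppp1r1a. Cox6a2, a respiratory chain subunit best known from muscle, had 471 and 491 CPM against 0 and 6.29 CPM, Tmem215 254 and 249 CPM against 0 and 2.10 CPM, and Prss53 627 and 586 CPM against 0 and 12.6 CPM. Fkbp1b and Papss2 completed the 15 genes that led this comparison.

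Among the genes that were lower, Ttr (transthyretin, abundant in alpha cells) had 3521 and 3710 CPM against 20754 and 40174 CPM. Ttr stayed among the 10 most abundant of the transcripts analysed in the cluster. Arg1, an arginase, was at 34.2 and 10.6 CPM against 443 and 235 CPM, and Gpx3, a secreted glutathione peroxidase, at 77.9 and 97.6 CPM against 1010.4 and 791 CPM. Edn3 (endothelin 3) was at 1.90 and 0 CPM against 100.2 and 124 CPM. Etv1, a transcription factor, was at 36.1 and 30.3 CPM against 273 and 296 CPM. These counts depend on the rule that both mice pass: 57 genes were higher and 52 lower in WT 1 alone, and 50 and 42 in WT 2 alone. They also move with the constant added, from 73 higher with 5 CPM to 12 with 100 CPM. Without the 24 cells that held 10 UMIs of another cell type, 45 genes were lower.

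**Figure D3:**
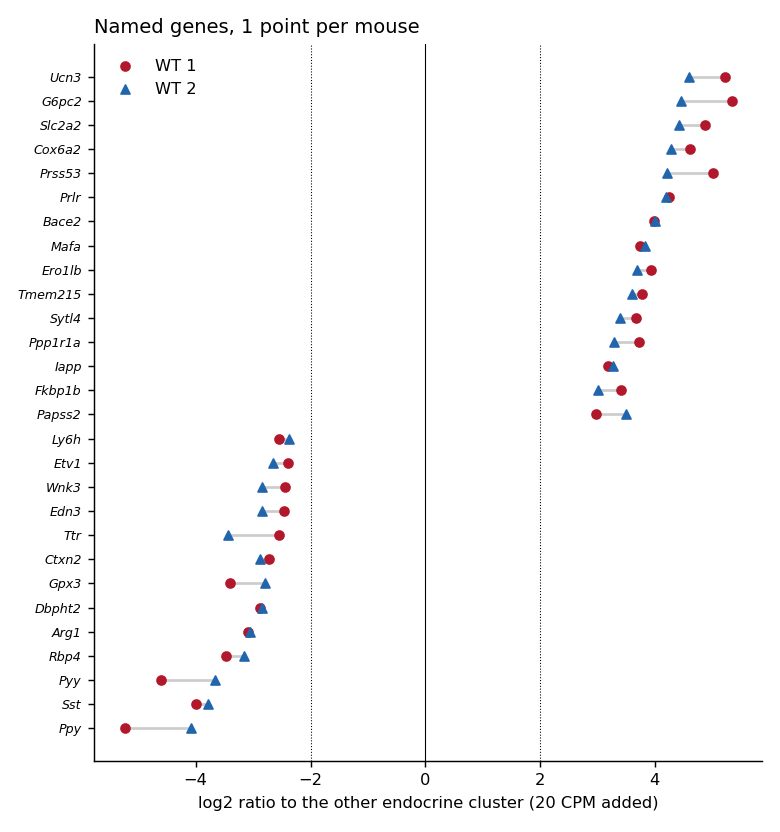
Log2 ratios of the beta cell-like cluster to the other endocrine cluster, with 20 CPM added, for 15 leading genes on the higher and 13 on the lower side, 1 point for each WT mouse joined by a line, and dotted lines at 4-fold. Both mice lie outside the dotted lines for each gene shown, and Sst, Ppy, Pyy, Rbp4 and Ttr are on the lower side.

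Markers of the other pancreatic cell types were low in the cluster. Of 29 acinar genes only 10 were listed, and these summed to 256 and 235 CPM against 2199 and 2365 CPM in non-endocrine cells. Ductal genes summed to 2230 and 768 against 17813 and 9835 CPM, and stellate cell genes to 344 and 1089 against 12894 and 16070 CPM. 6 of 10 acinar, 5 of 9 ductal, 6 of 9 stellate, 6 of 6 endothelial and 3 of 9 immune genes were lower than in non-endocrine cells. Of all 14409 genes compared, 2.80% were called lower. As with the hormones, some of these transcripts sat in few cells. Dcn (decorin, of stellate cells) reached 10 UMIs in 8 cells, all of WT 2, Spp1 in 2 cells and Acta2 in 1 cell of WT 1, and Cd74 in 1 cell of WT 2. With Sst, Ppy and Pyy, 24 cells (18.05%; 6 in WT 1 and 18 in WT 2) held 10 UMIs of at least 1 of these 7 genes.

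C1qa and Cd79a of the immune list and Krt7 of the ductal list went another way. C1qa, a complement gene of macrophages, had 127 and 244 CPM and a UMI in 66.9% of the cells of the cluster, 58.2% of the other endocrine cells and 1.75% of ductal cells (33.1%, 44.5% and 0.621% after thinning). The macrophage genes Lyz2 and Cd68 had 0 UMIs in WT 1 and 10.6 and 5.28 CPM in WT 2. Cd79a, a B cell gene, had 64.6 and 40.9 CPM, with a UMI in 24.1% of the cells of the cluster, 2.05% of the other endocrine cells and 0.437% of ductal cells. The ductal keratin gene Krt7 had 279 and 231 CPM and was seen in 84.2% of the cells. These 3 genes were singled out after their values were seen.

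1 cell of the cluster, from WT 2, expressed genes of the cell cycle. It had 26 UMIs of Mki67, 28 of Top2a, 14 of Birc5 and 6 of Cdk1 beside 3190 of Iapp, in 15932 UMIs in all. The other 132 cells had 4 UMIs of Mki67 in total, and 0 of 5 proliferation genes were called in either direction.

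The 2 WT mice were alike within the cluster for most genes. Of 5321 genes with 20 UMIs in the cluster of either mouse, 46 were at least 4-fold apart, 39 higher in WT 2 and 7 in WT 1. Pcsk1n, the precursor of the granin-like peptide proSAAS, had 110.2 and 3012 CPM in the cluster and 239 and 6169.9 CPM in the other endocrine cluster. Its log2 difference was 4.54 and 4.58 in the endocrine clusters. In non-endocrine cells it had 3 and 119 UMIs (0.188 and 6.14 CPM), also higher in WT 2. H2afj, Nenf, Mrps24, Scand1 and Chchd10 differed in the same direction in non-endocrine cells, by 3.16, 3.18, 2.86, 2.87 and 2.32 on the log2 scale, among 12 genes that were 4-fold apart in both. The libraries of WT 1 and WT 2 come from different library name series (AL and AM), so between these 2 mice alone, mouse and series coincide. In the beta-like cells described below, Pcsk1n was at 109 CPM in WT 1 and 2842 CPM in WT 2. It was at 1582, 1288 and 2443 CPM in i4F 1, i4F 2 and i4F 3 (AL), and at 2218 and 609 CPM in CER 1 and CER 2 (AM). The cause of the difference between the WT mice was not tested. Acta2, Tagln, Cd74, H2-Aa and Il1b rested on 1 cell, which held 96.8% or more of their UMIs.

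To follow these cells into the other mice, where the endocrine cells form a single cluster, a marker gate was applied to all cells. A cell with at least 5 UMIs from at least 3 of 9 endocrine genes (Chga, Chgb, Scg2, Scg3, Scg5, Pcsk1n, Pcsk2, Scgn and Resp18) was called endocrine-like, and beta-like where the beta list had more UMIs than each other islet list. The gate took in 133 of the 133 cells of the cluster and called all of them beta-like, beside 5 of the 146 cells of the other endocrine cluster and 2 ductal cells. In i4F 1, 5 of the 30 beta-like cells lay outside the endocrine cluster, in the stellate (2), macrophage (2) and ductal (1) clusters, and i4F 3 and CER 1 each had 1 such cell. The beta-like call rested mostly on Iapp, with 169682 and 150931 of the 173905 and 154943 CPM of the beta list in WT beta-like cells. In the other endocrine cluster that list summed to 20592 and 17637 CPM in WT 1 and WT 2. The alpha list, which lacked Gcg, summed there to only 821 and 700 CPM, the delta list to 58923 and 46855 and the gamma list to 52129 and 60334 CPM. Because gate and list genes chose the cells, their levels are given with no test.

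By this gate, 1.09% and 1.47% of cells were beta-like in WT 1 and WT 2, 0.306%, 0.219% and 0.565% in i4F 1, i4F 2 and i4F 3, and 0.258% and 0.668% in CER 1 and CER 2. These shares rest on 47 and 93, on 30, 18 and 43, and on 39 and 47 cells. Every i4F and CER mouse lay below both WT mice. The mean was 1.28% ± 0.271 (SD, n = 2) in WT, 0.363% ± 0.180 (n = 3) in i4F and 0.463% ± 0.290 (n = 2) in CER, 3.52-fold and 2.76-fold lower than WT. With so few mice the exact two-sided permutation test could give no p below 0.2 for i4F and 0.333 for CER, and gave these values (0.333 for both after adjustment over 4 tests), so the differences did not pass. Without the library labelled i4F 3 the log2 ratio of the i4F mean to WT was -2.28 instead of -1.82. Without CER 1 that of CER was -0.94 and without CER 2 it was -2.31, instead of -1.47.

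A share of cells falls when other cells enter the tissue. Over the cells outside the immune clusters, beta-like cells were 1.15% and 1.67% in WT, 0.496%, 0.424% and 0.899% in i4F and 0.582% and 1.24% in CER, so that CER 2 lay between the WT mice. Fewer beta cells in the tissue, fewer that survived dissociation and more of other cells cannot be told apart from these shares. All endocrine-like cells together were also below both WT mice in every i4F and CER mouse, with means of 2.64% ± 0.429 (SD, n = 2) in WT, 0.724% ± 0.476 (n = 3) in i4F and 0.667% ± 0.402 (n = 2) in CER. Without the library labelled i4F 3 the log2 ratio of the i4F mean to WT was -2.55 instead of -1.86, and that of CER was -1.47 without CER 1 and -2.78 without CER 2 instead of -1.98. Beta-like cells were 47 of 101 and 93 of 186 endocrine-like cells in WT, 30 of 44, 18 of 37 and 43 of 97 in i4F, and 39 of 58 and 47 of 67 in CER.

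**Figure D4:**
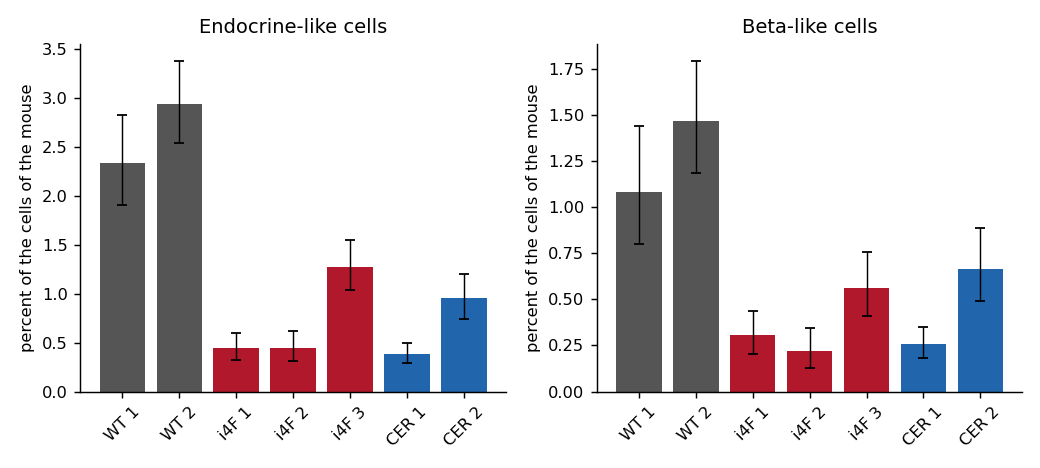
Endocrine-like cells (left) and beta-like cells (right) as a percent of the cells of each mouse, with bars for single mice and exact 95% binomial intervals that cover counting error only. Both WT bars are the highest in each panel, and i4F 3 and CER 2 are the highest of their groups.

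The beta-like cells of the i4F and CER mice were shallower, with a median of 2946.5, 3298.5 and 4077 UMIs in i4F and 2913 and 1277 in CER, against 9865 and 8098 in WT. Iapp was at 169682 and 150931 CPM in the WT mice, 76571, 77378 and 151862 CPM in i4F 1, i4F 2 and i4F 3, and 136462 and 145217 CPM in CER. Mafa was at 300.4 and 357 CPM in WT, 47.1, 29.95 and 320.3 CPM in i4F and 154 and 172 CPM in CER. Ucn3 was at 675 and 615 CPM in WT, 169, 149.8 and 542 CPM in i4F and 593 and 384 CPM in CER. For these 3 genes i4F 1 and i4F 2 were the lowest 2 of the 7 mice, and i4F 3 was near WT. Markers of other cell types varied between these mice too. Stellate cell genes summed to 318 and 982 CPM in the beta-like cells of WT, 5884, 1692 and 41.3 CPM in i4F and 1225 and 2716 CPM in CER. Ductal genes summed to 3094 and 3076 CPM in WT, 11033, 2082 and 1550 CPM in i4F and 2981 and 2319 CPM in CER, but to 2231 and 768 CPM in the WT cells of the cluster alone. Immune genes summed to 199 and 754 CPM in WT, 508, 4028 and 1069 CPM in i4F and 3620 and 3829 CPM in CER. Their part in the levels of Iapp, Mafa and Ucn3 was not tested. A restriction chosen after the values were seen kept only the 25 beta-like cells of i4F 1 that lay in its endocrine cluster. Their ductal sum was 2718 CPM and their stellate sum 5767 CPM. In the WT beta-like cells of the endocrine clusters the ductal sums were 2177 and 2085 CPM and the stellate sums 333 and 1020 CPM. Iapp was then at 86232, Mafa at 53.5 and Ucn3 at 193 CPM in i4F 1, each still below both WT mice. Counts of the transgene were few, with 1, 2 and 6 UMIs of rtTA in the beta-like cells of the i4F mice, or 9.41, 29.9 and 31.0 CPM against 42.5, 48.3 and 46.7 in the whole libraries. Pou5f1 and Sox2 had 0 UMIs among the 66830 to 193657 UMIs of these cells in each i4F mouse and were not detectable at this depth.

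Other genes of the beta-like cells were tested with edgeR's quasi-likelihood test on counts summed per mouse, with Benjamini-Hochberg adjustment over 3129 genes. i4F 2 had under 20 beta-like cells and stayed out of the fit, so i4F rests on i4F 1 and i4F 3. In i4F, 2 genes were higher (0.0639%) and 0 lower, with 256 genes at an unadjusted p under 0.05, while DESeq2 called 27 higher and 3 lower. Reg3a, a secreted antibacterial lectin of injured pancreas, rose from 0 and 0 CPM in WT to 339 and 299.6 CPM in i4F 1 and i4F 3, with 29.95 CPM (2 UMIs) in i4F 2, at least 148-fold against a floor of 3 UMIs over the WT group (edgeR adjusted p = 0.0076). Lyz2, a lysozyme gene of macrophages, rose from 0 and 9.48 CPM to 348 and 315 CPM, with 2127 CPM in i4F 2 (log2 5.86, SE 0.72, edgeR adjusted p = 0.0423). The filter on low counts asked for 61.8 CPM in at least 2 mice. Both genes were under that level in both WT mice, so they were tested only because of the groups where they are high. Their count and their adjusted p, here and in the other fits below, are therefore a description. In the non-endocrine cells of i4F 1 and i4F 3, Reg3a was at 412 and 2658 CPM and Lyz2 at 2643 and 1054 CPM, above the beta-like cells of the same mouse in each case. With i4F 2 in the fit, 11 genes were called, Reg3a and Lyz2 among them (edgeR adjusted p = 0.0479 for both). Without the library labelled i4F 3 the log2 ratios of Reg3a and Lyz2 were 9.84 and 5.88. With WT and i4F alone in the fit, the edgeR adjusted p of Lyz2 was 0.184. The total was 40 without WT 1, 100 without WT 2 and 34 without the library labelled i4F 3, each time with both genes; such a fit leaves 1 mouse in a group, which is assumed to vary like the mice of the other groups. With the beta-like cells of the endocrine clusters alone, 9 genes were called, and 7 with WT limited to the cluster, Reg3a and Lyz2 among them in both. All i4F libraries are of the AL series and both CER libraries of the AM series, with 1 WT mouse in each, and series as a term gave 134 calls for i4F and 74 for CER.

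In CER, 43 genes were higher (1.37%) and 2 lower (0.0639%). Several of the leading genes are known from macrophages. C1qb, a complement gene, rose from 0 and 0 CPM to 801 and 702 CPM, at least 360-fold against the floor (edgeR adjusted p = 0.00624). With i4F 2 in the fit C1qb, C1qc and Ccl6 no longer passed (edgeR adjusted p = 0.105, 0.199 and 0.111), and 19 genes were called in all. Wfdc17, C1qc, Ccl6 and Gm2663 likewise went from 0 UMIs in both WT mice to at least 262-fold, 145-fold, 225-fold and 243-fold over the floor. Of the 43 genes, 39 were under the 61.8 CPM of the filter in both WT mice, 7 of them with 0 UMIs, and so were tested only because of the groups where they are high. The 4 others were Ctsb, Ctsd, Cyba and Sh3bgrl3. The count of 43 and the adjusted p of the 39 genes are a description. With WT limited to the cluster, a choice made after the values were seen, 40 genes were called, 38 of them among the 45. Lyz2 rose to 2750 and 2557 CPM. The lysosomal protease gene Ctsd rose from 181 and 169 CPM to 1502 and 1643 CPM (log2 3.20, SE 0.35, edgeR adjusted p = 0.00406). In both CER mice, 42 of the 43 genes were higher in the non-endocrine cells of the same mouse than in its beta-like cells, the exception being Chil3, and 32 were also above both WT mice in i4F 1 and i4F 3. The shares of all 3129 tested genes that do so were not counted, so neither number sets the called genes apart. The 9 immune marker genes summed to 199 and 754 CPM in the beta-like cells of WT, 508, 4028 and 1069 CPM in i4F and 3620 and 3829 CPM in CER, and to 3037 and 4957, 4705, 3693 and 9405, and 10298 and 8420 CPM in non-endocrine cells. Their part in the called genes was not tested.

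**Figure D5:**
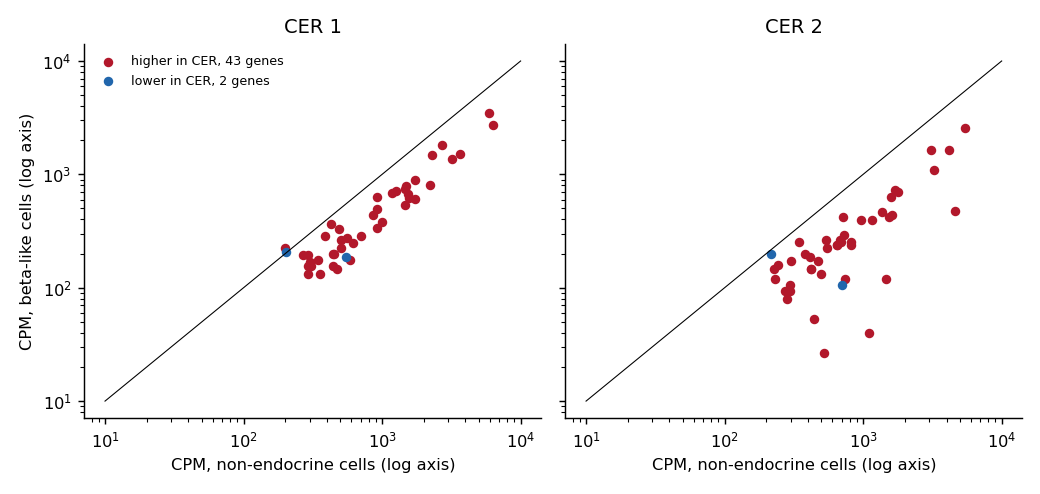
Level in CPM of the 45 genes called in CER, in beta-like cells (vertical) against non-endocrine cells (horizontal) of CER 1 and CER 2 on log axes, with 1 point per gene and the diagonal drawn for equal levels. All but 1 of the 43 genes that rose lie below the diagonal in both mice.

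Atf3, a stress-induced transcription factor, was 1 of the 2 genes called lower in CER, but a few WT cells outside the cluster carried that call. Over all beta-like cells it was at 766 and 578 CPM in WT and 185 and 106 CPM in CER (log2 -2.12, SE 0.36, edgeR adjusted p = 0.0316). In WT 1, 3 cells outside the cluster held 235 of its 436 UMIs, and in WT 2, 4 such cells held 415 of 488. The cluster itself was at 382 and 96.3 CPM, so that WT 2 lay below both CER mice. With WT limited to the cluster and CER to its endocrine cluster, Atf3 did not pass (log2 -0.65, edgeR adjusted p = 0.787), nor did it with the beta-like cells of all endocrine clusters (log2 -1.54, edgeR adjusted p = 0.101). Over all beta-like cells its log2 ratio was -2.75 without CER 1 and -1.82 without CER 2, each with 1 CER mouse left. Atf3 was lower in the non-endocrine cells of CER too, at 551 and 699.8 CPM against 3270 and 2301 CPM. Of the lists, 2 of 5 tested immune genes were higher (Lyz2 and Cd68, both under the filter level in both WT mice) and 1 of 13 immediate early genes lower (Atf3, which did not pass with WT limited to the cluster); in i4F Lyz2 alone of all lists was called. Pcsk1 was at 499 and 450 CPM in WT and 113, 210 and 279 CPM in i4F 1, i4F 2 and i4F 3 (log2 -1.20, edgeR adjusted p = 0.515). Without CER 1 a single gene of the 45 was called, without CER 2 there were 28, and without WT 1 and WT 2 there were 68 and 115 calls, each fit again with 1 mouse in a group whose spread the other groups supply.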

How the data were processed

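Pancreas of 7 mice was profiled by 10x Genomics 3′ single-cell RNA-sequencing. Per the labels and the study's methods, the authors aligned reads to mm10 with Cell Ranger, corrected free RNA with SoupX, kept cells with at least 150 genes and at most 5% mitochondrial UMIs, and clustered them in Seurat with 20 principal components at a resolution of 0.2. The deposited values are UMI counts per gene and cell, and the deposited annotation names each cell's cluster; whether the counts precede or follow SoupX is not given in the sources used here. The cluster was taken by its name, whose letter is unreadable and was read as beta from marker genes. Members and lists were chosen with earlier results of these data known.

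Counts were summed per mouse and class as CPM (Python 3.11.15, pandas 2.3.3), and ratios used 20 CPM, at least 20 UMIs in the higher class and 4-fold in both mice. Genes named were those of the lists, the 20 leading genes over non-endocrine cells with a UMI in 20% of the cells, the 15 leading in each direction over the other endocrine cells, the 10 most abundant, and up to 5 per direction of each edgeR contrast with 50 CPM; others are said to be chosen later or stand beside them. Beta-like cells were tested with edgeR 4.0.16 (R 4.3.3; TMM, filterByExpr, adjusted p threshold 0.05) over 6 mice with 20 such cells; DESeq2 1.42.0 was an alternative. Genes of the gate and islet lists were left out. Some genes that these rules select are not reported here. Doublets were called with Scrublet (scanpy 1.11.5) but kept. On simulated counts of 3129 genes, 67% of 4-fold and 89% of 8-fold changes were recovered for i4F, and 64% and 86% for CER, with 4 and 10 false calls. The simulation gave every gene the same spread between mice (a dispersion of 0.0887) around its mean over all mice. Its shares therefore need not hold for the real genes, least of all those near 0 in WT. Sequences are from RefSeq, GRCm38.p6. Intervals and floors cover counting error only.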

Additional observations from a re-analysis of the deposited data

How the results depend on the processing

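Counts of genes set against other WT cells kept within 1.5 times of their value under other scalings, filters and doublet removal, and moved with the constant added: 346 and 37 genes were higher than in non-endocrine cells with 5 and 100 CPM instead of 195 with 20 CPM, 73 and 12 instead of 36 were higher than in the other endocrine cluster, and 47 and 6 instead of 26 were lower. Removing cluster cells with 10 UMIs of another cell type, chosen after seeing the data, gave 45 lower. With 1 WT mouse left out, the 3 counts were 225 to 229, 50 to 57 and 42 to 52, as a call then needs 1 mouse only. The cluster's share was 1.68% of cells with at least 500 genes, and 1.02% to 1.41% with a mouse left out.

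For i4F against WT, the 2 called genes became 30 with DESeq2, 111 without a filter on low counts, 1 with the 2 groups alone, 134 with library name series as a term and 3 to 100 with a mouse left out; with choices made after seeing the data, 11 were called with i4F 2 included, 9 in beta-like cells of the endocrine clusters alone and 7 with WT cells of the cluster alone. For CER against WT, 45 became 233 without the filter, 69 with the 2 groups alone, 74 with the series term, 1 to 115 with a mouse left out and, with i4F 2 included, 19. Leaving out i4F 2 was not run for the genes, since it is not in that fit. The cause was not tested for any of these. Deviations from group means correlated at -0.106 between WT 1 and i4F 1, and at -0.130 for both same-numbered pairs of WT and CER. Each group had 2 mice in that fit, so the deviations of its mice mirror each other. These values therefore cannot show whether the numbers pair the mice. With the replicate block 25 and 55 genes were called, and 179 in CER with a crossed pairing chosen after seeing the data. Shares of beta-like and endocrine-like cells were lower than in WT under every alternative run, with log2 ratios for beta-like cells of -1.55 to -2.28 in i4F and -0.94 to -2.31 in CER with a mouse left out. The number of mice, and 18 to 93 beta-like cells in each, limit all comparisons between conditions.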
